A study of Mus musculus with 6 samples.

Results

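The genes described here import cystine, make, recycle and use glutathione, and make up 10 of the 24956 genes measured in intestinal organoids of Apc Min mice. They were taken by symbol and comprise the cystine transporter subunit gene Slc7a11, the glutathione synthesis genes Gclc, Gclm and Gss, the reductase gene Gsr, the peroxidase genes Gpx1, Gpx2, Gpx3 and Gpx4, and the gene Ggt1 for an enzyme that breaks glutathione down outside the cell. Organoids are epithelial cultures grown in medium from primary cells, and the Min allele is a truncating mutation of Apc, a brake on Wnt signalling. All 6 libraries share this genotype, tissue and medium. In 3 of them the organoids had received DM-aKG, a cell-permeable dimethyl ester of α-ketoglutarate, and the other 3 were controls. The sources used here do not give the age and sex of the mice, the dose and time of treatment or what the controls received. They call the replicates biological without saying whether they came from separate mice or cultures, so the p-values measure only the spread between these libraries.

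Glutathione is a tripeptide of glutamate, cysteine and glycine that cells use to neutralize peroxides and reactive compounds. Cystine is imported by the xCT transporter in exchange for glutamate and reduced to cysteine, which glutamate-cysteine ligase and then glutathione synthetase build into glutathione. Peroxidases oxidize glutathione when they remove peroxides, and glutathione reductase returns it to the reduced form with NADPH. In other settings several of these genes are known targets of the antioxidant factor NRF2, and Slc7a11 is also a known target of ATF4, a factor of amino acid shortage. The intestinal epithelium is known for its own peroxidase, GPX2.

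Expression is given as RPKM, a read count scaled by gene length and library depth, which allows levels to be compared between genes. At the depth estimated for each library, a gene of 1 kilobase at 1 RPKM stood for 32.7 to 34.2 reads. Libraries of the same group correlated across genes at 0.990 to 0.997 and those of different groups at 0.957 to 0.971, where genes are not independent replicates. All 6 epithelial markers were present, with a summed level of 2078 to 2136 RPKM in the controls and 2597 to 3353 in DM-aKG. They did not move one way: Krt8 (831 to 1520 RPKM) and Krt18 (408 to 778), which make up most of the difference in the sum, rose with Cdh1 and Vil1, while Epcam (421 to 334) and Cdx2 (70.3 to 40.6) fell. All 9 fibroblast and muscle markers were under 1 RPKM in every library, with a summed level of at most 0.12, and Col3a1, Dcn and Lum were at 0. The 7 immune markers summed to 1.83 to 2.01 RPKM in the controls and 2.29 to 3.57 in DM-aKG, and the 5 endothelial and glial markers to at most 0.51. Within the DM-aKG group, replicate 1 stood apart with a summed level of 575 RPKM for the Paneth cell markers Lyz1, Mmp7 and Defa17, where the lowest DM-aKG library had 178 and the controls 839 to 1161. The 4 crypt base stem cell markers summed to 261 to 324 RPKM in the controls and 102 to 144.7 in DM-aKG. Goblet cell markers (3 genes) summed to 1245 to 1353 against 453 to 582 RPKM, enteroendocrine markers (3 genes) to 124 to 129 against 217 to 228, and enterocyte markers (3 genes) to 521 to 619 against 481 to 524. Among the enterocyte markers Alpi fell (mean 324 to 247 RPKM), while the groups of Sis (112 to 110) and Fabp2 (141 to 141) overlapped. In bulk RNA, fewer cells of a type and less RNA per cell cannot be told apart, and the part of cell composition in the results below was not tested.

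DM-aKG organoids held more RNA of the import gene Slc7a11, the synthesis and recycling genes and the peroxidase Gpx2, and slightly more of Gpx1 and Gpx4. Of the 9 genes that passed the filter (a mean of at least 1 RPKM over all libraries), 8 rose and 0 fell at an adjusted p under 0.05 in limma, which fits 1 linear model per gene and shares the variance estimate across genes. Over all 10852 genes tested, 55.6% were called, 30.9% higher and 24.7% lower. In all 8 every DM-aKG library lay above every control, a pattern that 35.3% of tested genes showed (64.2% did not overlap in either direction). The rise was at least 1 on the log2 scale in 6 of the 9, against 2.68% of all tested genes. The median log2 fold change was 1.22 over the 9 genes and 0.02 over all tested genes. Without DM-aKG replicate 1 again 8 of 9 rose (33.9% of all tested genes), and the same number rose without both that library and control replicate 2 (34.3%). Centring each library on its median turned the balance of all calls from 3354 higher and 2679 lower to 2790 higher and 3340 lower, and 8 of the 9 genes were still higher.

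**Figure D1:**
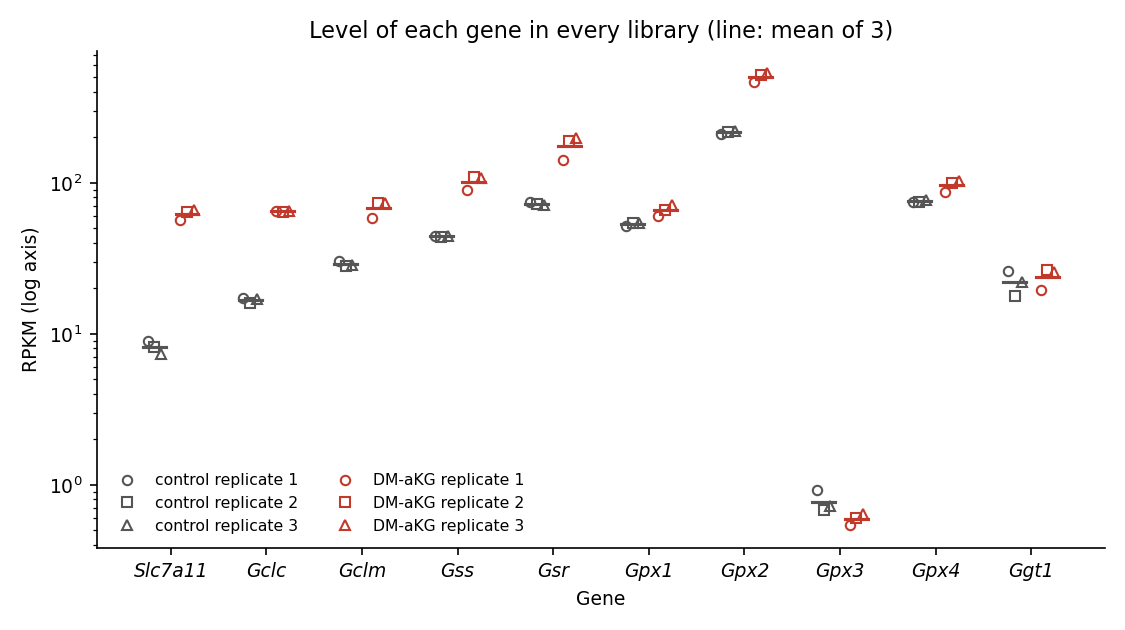
RPKM of the 10 genes (logarithmic axis) in each of 3 control (grey) and 3 DM-aKG (red) libraries, with symbols for the replicate and a line at the mean of each group. The groups lie apart in every gene but Ggt1; Gpx3 stays under 1 RPKM throughout.

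Slc7a11, the subunit of xCT that carries cystine, had the largest rise of the 10 genes. It stood at 8.95, 8.22 and 7.30 RPKM in control replicates 1 to 3 and at 56.6, 64.6 and 66.4 RPKM in DM-aKG replicates 1 to 3. All DM-aKG libraries were far above the controls, and replicate 1 was the lowest of them. The ratio of the means was 7.67, and the log2 fold change on the log2(RPKM + 0.5) scale was 2.87 ± 0.08 (SE, n = 3 per group; limma, adjusted p = 7.93e-07). Among the 10852 tested genes this was rank 7 from the largest rise. The gene lies on chromosome 3, 49892526 to 50443614, on the minus strand of GRCm38.

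Slc3a2 encodes the heavy chain that holds xCT and several other amino acid transporters in the membrane. Its level was 34.7, 40.1 and 34.8 RPKM in the controls and 77.0, 88.4 and 92.0 RPKM in DM-aKG, a log2 fold change of 1.22 ± 0.08 (limma, adjusted p = 3.16e-05). The rise of the heavy chain was thus smaller than that of Slc7a11. Per unit of Slc3a2 RPKM there were 0.258, 0.205 and 0.210 units of Slc7a11 RPKM in the controls and 0.735, 0.730 and 0.722 in DM-aKG. The log2 ratio rose by 1.65 between the group means, with no overlap (two-sided exact permutation test over libraries, p = 0.1, the smallest that 3 against 3 can give).

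**Figure D2:**
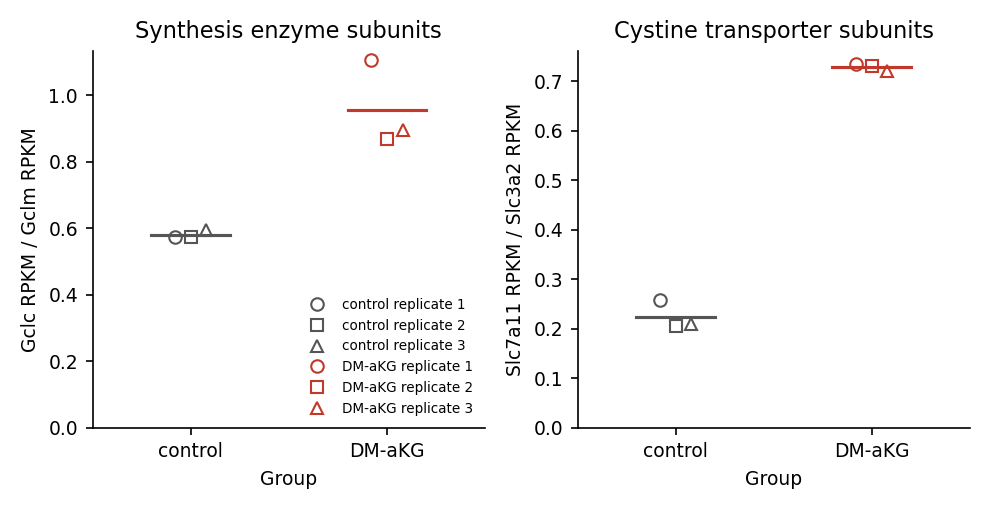
Ratio of Gclc to Gclm RPKM (left) and of Slc7a11 to Slc3a2 RPKM (right) in each control (grey) and DM-aKG (red) library, on axes that start at 0, with a line at the group mean. Both ratios are higher in all 3 DM-aKG libraries, and the DM-aKG values of the Slc7a11 ratio lie between 0.722 and 0.735.

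Promoter windows of RefSeq (GRCm38.p6; 250 bases before to 50 after a gene's start) matched 8 of the 10 genes, with 14 windows; Gclc and Gsr had no entry and were not searched. Both strands were searched for TGACNNNGC, the core of the antioxidant response element that NRF2 binds, and for TGATGNAA, a core of the composite element that ATF4 binds; no match of one overlaps a match of the other in these genes. The stretches that hold a match in the genes that rose are shown with the match in capitals. That of Slc7a11 (chr3:50443619-50443718, minus strand) lies 105 to 6 bases before the start and that of Gclm (chr3:122245387-122245486, plus strand) 170 to 71 bases before it.
Slc7a11: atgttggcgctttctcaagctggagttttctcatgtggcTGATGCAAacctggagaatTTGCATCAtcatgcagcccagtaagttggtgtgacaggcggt
Gclm: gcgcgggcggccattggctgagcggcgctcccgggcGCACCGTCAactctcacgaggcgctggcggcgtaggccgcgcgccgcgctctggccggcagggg
Slc7a11 holds TGATGNAA at 66 bases before the start and, on the opposite strand, again at 47 bases before it; 3.97% of all 32851 windows hold at least 1 match. The window of Gclm holds TGACNNNGC on the opposite strand at 134 bases before the start, a motif found in 12.4% of all windows. Ggt1, which did not pass the test, holds TGACNNNGC in 3 of its windows. A match is a description of letters in a short window and says nothing about binding.

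All 3 genes of glutathione synthesis rose. Gclc encodes the catalytic subunit of glutamate-cysteine ligase, the rate-limiting step. It stood at 17.4, 16.1 and 16.9 RPKM in the controls and 65.3, 63.9 and 65.6 RPKM in DM-aKG. The libraries of each group lay close together and the groups were far apart, with a ratio of means of 3.87 and a log2 fold change of 1.92 ± 0.04 (limma, adjusted p = 3.26e-07; chromosome 9, 77754535 to 77794485, plus strand). Gclm, the modifier subunit that raises the affinity of the ligase for its substrates, was at 30.3, 28.0 and 28.4 RPKM in the controls and 58.9, 73.6 and 73.2 RPKM in DM-aKG. DM-aKG replicate 1 was the lowest treated library here, still above all controls, and the log2 fold change was 1.22 ± 0.09 (limma, adjusted p = 3.85e-05; chromosome 3, 122245557 to 122270732, plus strand).

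The ratio of the ligase subunits was higher in every DM-aKG library than in any control. Gclc RPKM was 0.574, 0.574 and 0.595 of Gclm RPKM in the controls and 1.11, 0.868 and 0.896 of it in DM-aKG. The log2 ratio rose by 0.70 (two-sided exact permutation test, p = 0.1, the smallest possible), and the highest ratio was that of DM-aKG replicate 1, in which Gclm was lowest. Gss, the synthetase that adds glycine, was at 44.4, 44.1 and 44.4 RPKM in the controls and 89.3, 109 and 107 RPKM in DM-aKG. Its log2 fold change was 1.19 ± 0.08 (limma, adjusted p = 2.27e-05; chromosome 2, 155563181 to 155592810, minus strand), with DM-aKG replicate 1 again the lowest treated library. Exons of Gss overlap those of Acss2 and of 2 antisense genes on the opposite strand. Exons of Gclm overlap those of a pseudogene on the same strand and of an opposite-strand transcript. Without the strand setting, reads in the opposite-strand overlaps cannot be assigned to one gene. For the same-strand pseudogene, strand would not separate the reads. Acss2 itself was at 42.6 to 46.5 RPKM in the controls and 34.2 to 45.5 in DM-aKG.

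Gsr encodes glutathione reductase, which uses NADPH to reduce oxidized glutathione. It stood at 74.6, 72.5 and 71.8 RPKM in the controls and 141, 189 and 197 RPKM in DM-aKG. The groups did not overlap, but the DM-aKG libraries were spread more widely than for any other of the 8 genes that rose (SE 0.11), with replicate 1 lowest. The log2 fold change was 1.25 ± 0.11 (limma, adjusted p = 1.14e-04; chromosome 8, 33652523 to 33698163, plus strand) and 1.40 ± 0.04 without DM-aKG replicate 1. The log2 fold changes of Gclm, Gss, Gsr and Gpx2 all lay between 1.19 and 1.25.

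Gpx1 to Gpx4 encode selenoproteins, enzymes with selenocysteine in the active site. Selenocysteine is encoded by TGA, read elsewhere as a stop, and the codon annotated by GENCODE M21 (GRCm38) is shown in capitals with 24 bases of coding sequence on either side.
Gpx1: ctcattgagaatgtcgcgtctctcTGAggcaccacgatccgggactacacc
Gpx2: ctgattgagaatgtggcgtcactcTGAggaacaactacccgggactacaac
Gpx3: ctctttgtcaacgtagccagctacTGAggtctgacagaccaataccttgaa
Gpx4: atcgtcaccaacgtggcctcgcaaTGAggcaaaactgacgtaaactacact
The codons lie on chromosome 9 at 108339451 to 108339453 (Gpx1, plus strand), chromosome 12 at 76795256 to 76795258 (Gpx2, minus), chromosome 11 at 54907256 to 54907258 (Gpx3, plus) and chromosome 10 at 80054737 to 80054739 (Gpx4, plus). Gpx1 and Gpx2 share 43 of these 51 bases (84.3%), and every other pair shares between 24 and 29. Gpx2 and Gpx4 have annotated processed pseudogenes, of which Gpx2-ps1 was at 0.24 to 0.37 RPKM in the controls and 0.32 to 0.53 in DM-aKG. How reads shared with such copies were counted is not stated. Gpx1 spans 108338903 to 108340343 and Gpx2 76792333 to 76795554 on these chromosomes, Gpx3 54902453 to 54910377 and Gpx4 80047166 to 80056439.

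Gpx2, the peroxidase of the gut epithelium, was the most abundant of the 10 genes in both groups. It stood at 210, 217 and 222 RPKM in the controls and 469, 515 and 531 RPKM in DM-aKG. Every DM-aKG library was above every control, and the log2 fold change was 1.22 ± 0.06 (limma, adjusted p = 5.44e-06; ratio of means 2.34). Gpx4, which reduces lipid peroxides in membranes, was at 74.8, 74.8 and 76.8 RPKM in the controls and 87.6, 99.97 and 103.1 RPKM in DM-aKG, a smaller rise with a log2 fold change of 0.36 ± 0.06 (limma, adjusted p = 0.00218). Gpx1, the widely expressed cytosolic peroxidase, was at 51.96, 53.9 and 54.4 RPKM in the controls and 60.6, 65.98 and 71.6 RPKM in DM-aKG, a log2 fold change of 0.30 ± 0.06 (limma, adjusted p = 0.00463). The DM-aKG libraries of both were above all controls, with replicate 1 closest to them.

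Gpx3, the secreted plasma peroxidase, was barely present and lay under the filter. Its level was 0.92, 0.68 and 0.72 RPKM in the controls and 0.54, 0.60 and 0.64 RPKM in DM-aKG, which at the estimated depth and a transcript of 1594 bases stands for 29.4 to 48.6 reads per library. All DM-aKG values were below all control values, a difference that was not tested in the main model. Fitted without the filter, the log2 fold change was -0.22 ± 0.09 (limma, adjusted p = 0.118).

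Gpx2 made up a larger part of the summed peroxidase RPKM in every DM-aKG library than in any control. The summed RPKM of the 4 genes was 338, 346 and 354 in control and 618, 682 and 707 in DM-aKG (two-sided exact permutation test, p = 0.1, the smallest possible). The share of Gpx2 in that sum went from 62.5% ± 0.254 to 75.6% ± 0.367 (SD, n = 3 per group), 13.0 percentage points higher (p = 0.1 by the same exact test). Gpx4 made up 21.8% ± 0.275 in control and 14.5% ± 0.255 in DM-aKG, and Gpx1 15.4% ± 0.123 and 9.87% ± 0.238. Benjamini-Hochberg adjustment over these 2 values and the 2 subunit ratios leaves every p at 0.1.

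**Figure D3:**
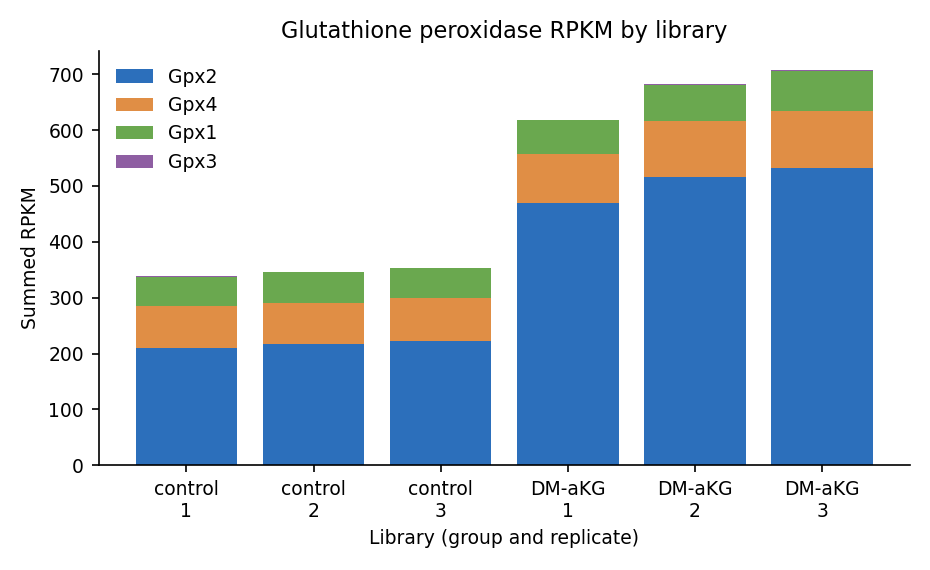
Stacked RPKM of Gpx2, Gpx4, Gpx1 and Gpx3 in each of the 6 libraries, from 0. The sum is 338 to 354 in control and 618 to 707 in DM-aKG, most of the difference is in the Gpx2 segment, and Gpx3 is too low to be seen.

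Of 6 tested genes of selenoprotein synthesis (Sephs2, Sepsecs, Secisbp2, Eefsec, Pstk and Scly), 0 passed the threshold in limma (also 0 at an unadjusted p under 0.05), where 55.6% of all tested genes did, and their log2 fold changes lay between -0.08 and 0.14. Pstk, the kinase that prepares the serine on the selenocysteine tRNA, had the smallest p, with 18.3, 18.1 and 19.3 RPKM in the controls and 19.9, 19.6 and 20.1 in DM-aKG (log2 fold change 0.10 ± 0.04; limma, adjusted p = 0.0817). Eefsec, the elongation factor for selenocysteine, was at -0.08 ± 0.04 (limma, adjusted p = 0.139) and the selenocysteine lyase gene Scly at 0.14 ± 0.08 (limma, adjusted p = 0.154). The scaling decided some of this: Pstk passed as higher with equal RPKM sums (limma, adjusted p = 0.0343), and Eefsec as lower with median centring (0.0315) and quantile normalization (0.0301). The libraries used mattered too. In this role 1 gene was called higher with array weights and without DM-aKG replicate 1, and 1 without both that library and control replicate 2.

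Ggt1 encodes γ-glutamyltransferase 1, which cleaves extracellular glutathione at the cell surface (chromosome 10, 75561604 to 75586200, plus strand). It was the only tested gene of the 10 that did not pass (limma, adjusted p = 0.515; log2 fold change 0.12 ± 0.15). Its level was 26.0, 17.8 and 22.2 RPKM in the controls and 19.6, 26.5 and 25.8 RPKM in DM-aKG, with overlapping groups. Control replicate 2 and DM-aKG replicate 1 were the low libraries, and without control replicate 2 the log2 fold change was -0.017 (limma, adjusted p = 0.926). Of 9 other tested genes of the γ-glutamyl cycle and glutathione breakdown (11 listed), 6 rose and 0 fell, against 30.9% and 24.7% of all tested genes, and 4 to 8 rose over the alternatives. Chac1, a cytosolic enzyme that degrades glutathione, had the largest change among them, at 5.24, 10.5 and 5.0 RPKM in the controls and 14.1, 13.5 and 15.4 in DM-aKG (log2 fold change 1.08 ± 0.24; limma, adjusted p = 0.00653; named for its size after its values were seen). Anpep, an aminopeptidase of the brush border, rose by 0.58 ± 0.05 on the log2 scale, the dipeptidase gene Dpep1 by 0.47 ± 0.07 and the 5-oxoprolinase gene Oplah by 0.50 ± 0.10.

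The order of the levels changed between the groups. In control it ran Gpx2, Gpx4, Gsr, Gpx1, Gss, Gclm, Ggt1, Gclc, Slc7a11 and Gpx3, and the libraries of each neighbouring pair did not overlap. In DM-aKG it ran Gpx2, Gsr, Gss, Gpx4, Gclm, Gpx1, Gclc, Slc7a11, Ggt1 and Gpx3. Here the libraries of Gss and Gpx4 overlapped, and so did each neighbouring pair from Gclm to Slc7a11, whose means lay between 62.5 and 68.6 RPKM; the other neighbours did not. Slc7a11 and Gclc, the lowest of the expressed genes in control, thus reached the level of Gpx1, while Ggt1 kept a mean of 22.0 ± 4.09 RPKM in the controls and 23.9 ± 3.78 in DM-aKG (SD, n = 3).

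DM-aKG replicate 1 was the lowest treated library in 8 of the 9 tested genes, the exception being Gclc. Over all 3354 genes that rose it was the lowest in 61.2%, and over all tested genes in 37.4%. Against the control mean, Gsr was 0.95 higher on the log2 scale in replicate 1 and 1.37 and 1.43 higher in replicates 2 and 3. For Gclc the 3 values were 1.93, 1.90 and 1.94. The same library had the highest Paneth cell marker levels of its group, as given above. It differed in other markers too, with the highest crypt base, goblet and enterocyte sums of its group. The enterocyte markers were mixed: Sis (133 RPKM) and Fabp2 (170) were highest in this library, while Alpi (221) was lowest. Its Krt8 and Krt18 levels were the lowest of the group. Its enteroendocrine sum was the lowest as well, but only slightly. Gcg was at 43.0 RPKM against 43.2 in replicate 2, and Cck, at 123 against 120, was not lowest. The part of these differences in the spread was not tested.

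**Figure D4:**
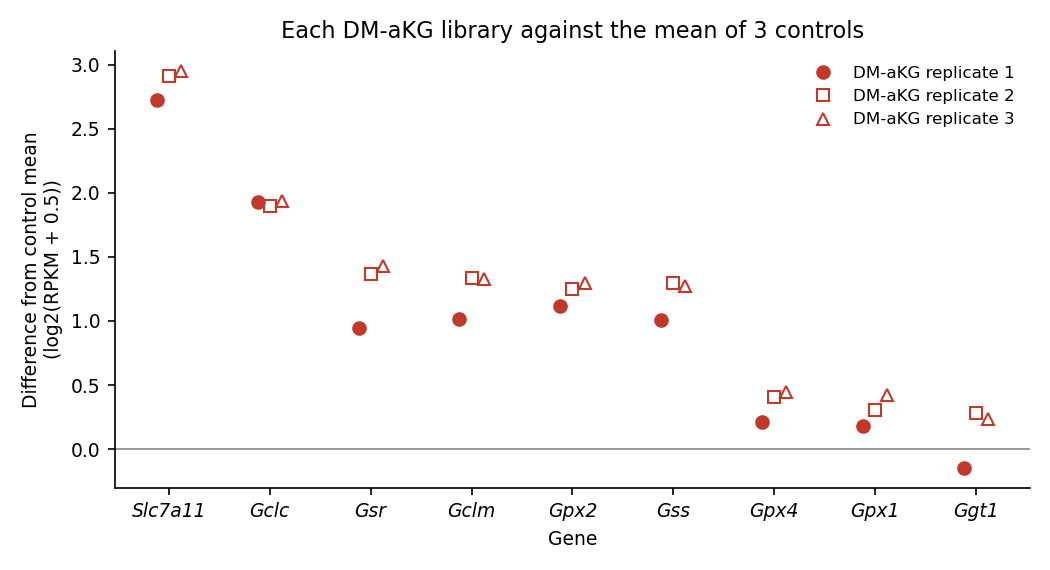
Difference of each DM-aKG library from the mean of the 3 controls, in log2(RPKM + 0.5), for the 9 tested genes in order of their log2 fold change. Replicate 1 (filled circles) is the lowest for every gene but Gclc and the only one below 0, for Ggt1.

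The wider pathway moved in both directions. Of 66 tested genes in 9 further roles (72 listed), 34 rose, 11 fell and 21 did not pass, against 30.9% and 24.7% of all tested genes, with a median log2 fold change of 0.18. Without control replicate 2 and DM-aKG replicate 1, 38 rose and 12 fell, where 34.3% of all tested genes rose. With median centring 27 rose and 13 fell, where 25.7% of all tested genes rose. The number that rose ran from 26 (without DM-aKG replicate 3) to 39 (equal RPKM sums or array weights). Among genes of cysteine supply, 4 of 11 rose and 5 fell. Slc3a1 did not pass, with means of 45.2 RPKM in the controls and 45.9 in DM-aKG (limma, adjusted p = 0.689). Nor did Slc7a9, with means of 12.5 and 13.3 RPKM (limma, adjusted p = 0.101). Besides Slc3a2, the neutral amino acid exchanger gene Slc1a4 rose by 0.71 ± 0.12 on the log2 scale and Slc1a1, a carrier of glutamate and cysteine, by 0.48 ± 0.08. Cth, which releases cysteine from cystathionine, rose by 0.35 ± 0.07. In the other direction, Cbs, the preceding enzyme of that route, fell from 1.33 ± 0.0651 to 0.687 ± 0.112 RPKM, and Cdo1, the dioxygenase that degrades cysteine, fell by 1.19 ± 0.22 on the log2 scale. Slc1a5 fell by 0.26. Mat2a and Ahcy were called lower at -0.23 and -0.28 with overlapping groups (limma, adjusted p = 0.0416 and 0.0427), and both lost the call with equal RPKM sums, no filter or no mean-variance trend, which left 3 genes that fell.

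Among 8 genes of NADPH supply and the pentose phosphate pathway 6 rose and 2 fell, against 30.9% and 24.7% of all tested genes. Of the 6, Idh1 lost its call with median centring (limma, adjusted p = 0.0613), as in 3 fits that left out 1 library. Me1, cytosolic malic enzyme, was at 11.8, 10.6 and 10.95 RPKM in the controls and 53.4, 59.9 and 59.0 RPKM in DM-aKG, a log2 fold change of 2.32 ± 0.06 (limma, adjusted p = 5.16e-07). The pentose phosphate genes G6pdx and Taldo1 rose by 0.51 ± 0.04 and 0.57 ± 0.04. The 2 genes that fell encode mitochondrial enzymes: Nnt, the transhydrogenase of the inner membrane, fell from 18.4 ± 0.197 to 11.8 ± 1.89 RPKM, and Idh2, the NADP-dependent isocitrate dehydrogenase, from 71.7 ± 4.27 to 60.8 ± 1.78 RPKM.

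Among 8 transport genes 6 rose, against 30.9% of all tested genes, and 4 to 6 rose over the alternatives. The 4 ABC pump genes rose by more than 1 on the log2 scale. Abcc1, a pump for glutathione and its conjugates, was at 9.04, 9.03 and 8.68 RPKM in the controls and 20.1, 24.6 and 24.9 RPKM in DM-aKG (log2 fold change 1.33 ± 0.08; limma, adjusted p = 1.92e-05). Abcc2 and Abcc3 rose by 1.20 ± 0.06 and 1.57 ± 0.06, and Abcc4 rose by 1.51 ± 0.11. The mitochondrial glutathione importer gene Slc25a39 was at 160 ± 3.83 RPKM in the controls and 159 ± 4.56 in DM-aKG (limma, adjusted p = 0.948). Its relative Slc25a40 was called higher at 0.24 ± 0.09 (limma, adjusted p = 0.0410), a call lost with median centring (0.0812) and with no filter (0.0814).

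Of the 7 other tested peroxidases and peroxiredoxins (9 listed), 5 rose and 2 fell, against 30.9% and 24.7% of all tested genes. Median centring left 3 that rose, without Cat (limma, adjusted p = 0.132) and Prdx5 (0.0605). Only 3 rose, too, with no filter (with 3 lower) and when any 1 library other than DM-aKG replicate 1 was left out. Prdx1, a cytosolic peroxiredoxin, rose by 0.33 ± 0.04 on the log2 scale. Prdx4, the peroxiredoxin of the endoplasmic reticulum, fell from 33.7 ± 0.671 to 16.9 ± 3.20 RPKM, and Prdx2 fell from 127 ± 5.05 to 103 ± 3.12 RPKM. Of the 4 glutaredoxin genes Glrx3 passed, at 0.22 ± 0.05 (limma, adjusted p = 0.00733). Glrx2 and Glrx5 had adjusted p of 0.0521 and 0.0594 in limma, but Glrx2 passed as lower with median centring (0.0251) and Glrx5 as higher with equal RPKM sums (0.0271).

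Of 7 regulators, 4 rose and 0 fell, against 30.9% and 24.7% of all tested genes: Mafg, a small Maf partner of NRF2, by 0.62 ± 0.05, Atf4 by 0.40 ± 0.08, Keap1, which marks NRF2 for destruction, by 0.27 ± 0.09, and Mafk by 0.19 ± 0.05. The groups of Keap1 overlapped, and its call was lost with median centring (limma, adjusted p = 0.0751), quantile normalization (0.0989) and no filter (0.0684); 2 to 5 regulators rose over the alternatives. Nfe2l2, the gene of NRF2, was at 64.7, 55.1 and 60.0 RPKM in the controls and 64.1, 58.9 and 59.8 in DM-aKG (log2 fold change 0.03 ± 0.06; limma, adjusted p = 0.756). In the lipid peroxidation list, 2 of 6 tested genes rose and 2 fell, against 30.9% and 24.7% of all tested genes. Over the alternatives 1 to 3 of them rose. Acsl4 and Lpcat3, which place polyunsaturated fatty acids in phospholipids, fell by 0.58 and 0.54 on the log2 scale, and the heme oxygenase gene Hmox1 rose from 5.43 ± 1.06 to 11.7 ± 2.35 RPKM.

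**Figure D5:**
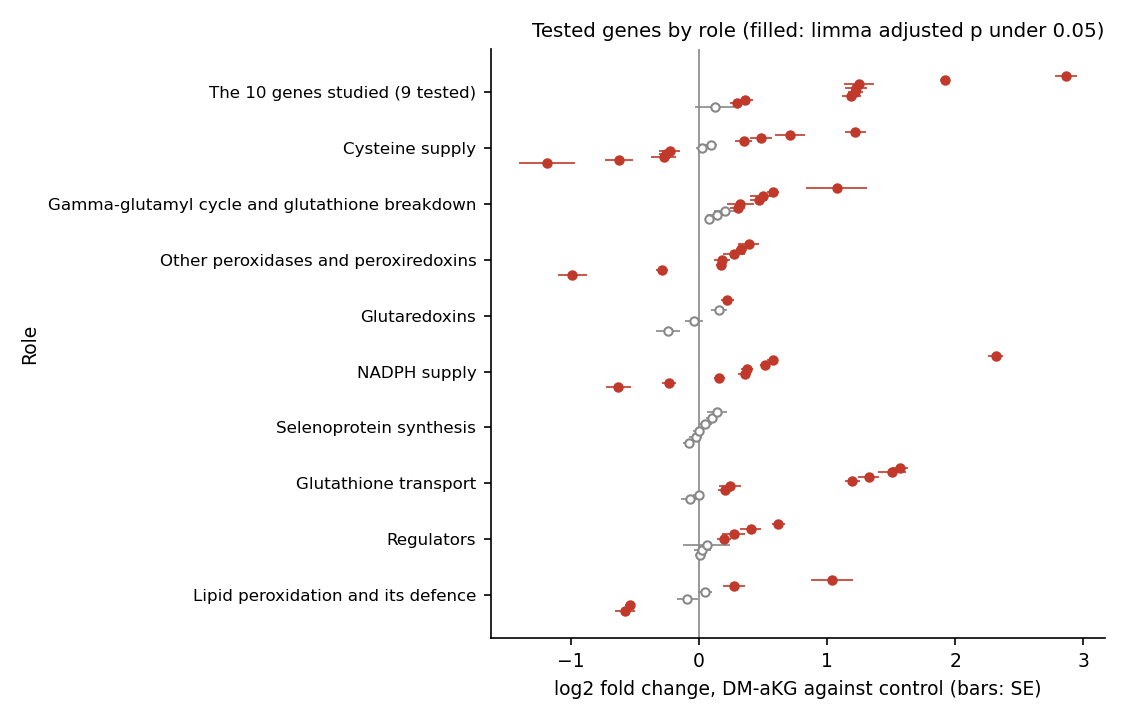
Log2 fold change (DM-aKG against control) with its standard error for the 9 tested genes of the 10 (top) and the 66 tested genes of 9 further roles; filled red points passed limma at an adjusted p under 0.05. Slc7a11 and Me1 lie farthest to the right, and the 6 selenoprotein synthesis genes all lie near 0 and are open.

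Other genes followed the most and least changed members closely over the 6 libraries. Likeness was taken as the root mean square difference of log2(RPKM + 0.5), each gene centred on its own mean, and is a description with no test. It was ranked over tested genes outside the list studied, and genes with clone or gene model names were skipped. Nearest to Slc7a11 were S100a6 (0.13), the tissue factor gene F3 (0.13) and the aldo-keto reductase gene Akr1b8 (0.14). Nearest to Gclc were Anxa3 (0.05) and the glutathione transferase genes Gsta3 (0.08) and Gstm1 (0.08). For Gpx1 they were Rnf126 (0.02), Lemd2 (0.02) and Zbtb7b (0.02), and for Ggt1 they were St3gal4 (0.05), Sult1b1 (0.06) and Arhgap10 (0.06). The 3 genes near Ggt1 shared its low values in control replicate 2 and DM-aKG replicate 1, and all 3 had an adjusted p above 0.6 in limma.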

How the data were processed

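RNA-seq of 3 control and 3 DM-aKG libraries was taken as deposited. The tools named, per the submitters' processing notes, are HISAT2 2.0.4, CASAVA 1.8 and Partek, with the build mm10. Annotation, strand setting and the handling of reads with several matches are not stated in those sources. The authors deposited RPKM with 2 decimals for 24956 genes, which were mapped to samples by column title.

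Values were analysed as log2(RPKM + 0.5), which understates changes of low genes. Genes with a mean of at least 1 RPKM were fitted together with limma 3.58.1 in R 4.3.3 (lmFit, eBayes with trend, two-sided), with Benjamini-Hochberg adjustment over all 10852 and calls under 0.05. Depth was estimated from genes of at most 150 bases, for which 1 read is a large step in RPKM; 75.5% to 85.7% of further values standing for at most 5 reads then came out whole within 0.05 reads. Ratios and shares were compared by an exact permutation test over libraries. The genes and lists were chosen with earlier results of these data known. Named were all 10 genes, the 3 genes with the smallest p in each role and those against the rest of their role; further genes are examples chosen after their values were seen. The nearest 3 genes were listed for the 2 genes with the highest and the 2 with the lowest log2 fold change. Positions come from GENCODE M21 (GRCm38, the assembly mm10 names) and promoters from RefSeq. Alternatives covered pseudocount, filter, scaling, variance model, array weights, a replicate block and the omission of libraries. Python 3.11.15 was used.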

Additional observations from a re-analysis of the deposited data

How the results depend on the processing

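The number of the 10 genes called was 8 under all 17 alternatives, each with 0 lower, and 8 of 8 kept their direction and an adjusted p under 0.05 in limma, the highest being 0.0207 (Gpx1 without control replicate 1). The log2 fold change ranged from 2.79 to 3.00 for Slc7a11, 1.85 to 1.96 for Gclc, 1.15 to 1.33 for Gclm, 1.16 to 1.40 for Gsr and 0.21 to 0.37 for Gpx1. Ggt1 never passed, with -0.017 (without control replicate 2, the 1 reversed direction) to 0.26 when 1 library was left out, and an adjusted p of 0.0662 to 0.926 over all alternatives. Calls over all genes numbered 4748 to 7712 and those of the wider pathway 35 to 51. The replicate numbers did not pair the libraries (correlation of deviations from the group means -0.08, -0.11 and 0.01 for numbers 1, 2 and 3, and no library correlated best with its own number); with the replicate block 5748 genes, 8 of the 10 and 46 pathway genes were called, and the sign-flip test over 3 pairs gave p = 0.25, its smallest, for the ratios, the Gpx sum and the Gpx2 share. The joint omission of DM-aKG replicate 1 and control replicate 2 was chosen after seeing the data. At 3 libraries per group no permutation p under 0.1 can be reached, and levels under 1 RPKM, as for Gpx3, rest on few reads.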
